A study of Mus musculus with 6 samples.

Results

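The genes described here are 10 genes that mark mast cells, basophils and eosinophils, namely Cpa3, Cma1, Mcpt8, Prss34, Hdc, Fcer1a, Ms4a2, Prg2, Prg3 and Epx. They were chosen by name, and every probe set that the platform annotation gives to exactly 1 of them was taken. This found 11 probe sets for 9 of the 10 genes, out of 34945 probe sets for 18193 genes with such an annotation. Prss34, a serine protease of basophils and mast cells, had no probe set of its own and is not analysed here. Hdc and Ms4a2 had more than 1 probe set, and the brighter over all 6 arrays stood for the gene.

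The cells were sorted from the bone marrow of male Hes1 GFP/WT mice, 6 weeks old, in which 1 copy of Hes1, a target of Notch signalling, carries a green fluorescent protein reporter. There were 3 arrays of GFP-positive cells and 3 of GFP-negative cells, and both groups were lineage-negative, cKit+ and Sca1-, the phenotype of myeloerythroid progenitors. Both groups carried the reporter allele, and neither received a treatment. For each array 5 ng of total RNA was amplified and labelled with biotin. The labels do not say whether arrays came from separate or pooled animals, so each p-value reflects the spread between arrays, which may be technical in origin. All values are log2 intensities of the deposited RMA values, and the number of arrays limits their precision.

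Mast cells, basophils and eosinophils are granule-bearing cells that arise from myeloerythroid progenitors in the marrow. Mast cells and basophils store proteases and histamine and release them when IgE bound to their high-affinity receptor is crosslinked. Eosinophils store cationic proteins, among them major basic protein and eosinophil peroxidase. GATA factors and C/EBP factors act in the development of all these lineages.

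Hes1 served as the check of the sort: it averaged 7.15 ± 0.04 in GFP-positive and 5.88 ± 0.14 in GFP-negative arrays (SD, n = 3 each; limma adjusted p = 0.00141). Kit, on which the cells were gated, lay between 11.13 and 11.24 in GFP-positive and between 11.31 and 11.53 in GFP-negative arrays. Its log2 change of -0.25 was not called (limma unadjusted p = 0.0398, adjusted p = 0.138). The other measured progenitor markers, Cd34 and the Fc receptor gene Fcgr3, were 2.58-fold and 3.31-fold lower in GFP-positive cells (limma adjusted p = 0.00251 and 0.00256), and the summed intensity of the 3 genes ran from 5078 to 5498 in GFP-positive and from 10846 to 11637 in GFP-negative arrays. An immunoglobulin signal stood out in 1 array of each group, with Jchain at 8.65 in GFP-positive array 1 and 8.85 in GFP-negative array 3, against 3.64 to 4.08 in the other arrays. Over all 8 measured B and plasma cell markers the summed intensity ran from 921 to 3590 in GFP-positive and from 2535 to 3988 in GFP-negative arrays. Limma called 2 of the 8 lower, Cd79b and Ighm, and none higher. At an unadjusted p under 0.05 it gave 5, of which Cd79a, Ms4a1 and Mzb1 were higher. The median log2 change of the 8 was 0.19. Mature neutrophil genes also varied, with a summed intensity of 9 markers from 6463 to 18403 in GFP-positive and from 3048 to 7607 in GFP-negative arrays, and limma called 0 of them in either direction (0 of the 9 at an unadjusted p under 0.05). Of 9 measured T cell and natural killer cell markers, Nkg7, a granule gene of natural killer cells, was called lower (11.67 ± 0.39 in GFP-positive and 12.83 ± 0.05 in GFP-negative arrays, SD, n = 3 each; limma adjusted p = 0.0134). The sum of these 9 ran from 3375 to 4808 in GFP-positive and from 7999 to 8383 in GFP-negative arrays, and most of it was Nkg7. The mean intensity of Nkg7 was 3343 in GFP-positive and 7308 in GFP-negative arrays. At an unadjusted p under 0.05 limma gave 2 of the 9, Nkg7 (lower) and Cd3d (higher). The median log2 change of the 9 was 0.31, and the T cell gene Cd3e lay between 4.62 and 6.29. Of 7 measured marrow macrophage markers, Vcam1 was called higher (1.82-fold, limma adjusted p = 0.0227) and 4 had an unadjusted p under 0.05, with a sum of 755 to 1258 in GFP-positive and 463 to 652 in GFP-negative arrays. Of 3 measured red cell precursor markers limma called 0 (0 at an unadjusted p under 0.05), with a sum of 4988 to 5723 in GFP-positive and 4545 to 5033 in GFP-negative arrays. The part of all these markers in the results below was not tested, and results are also given without the arrays with immunoglobulin signal. For comparison, limma gave 2748 of all 18193 genes lower and 3995 higher at an unadjusted p under 0.05.

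Of the 9 measured genes, 4 were lower and 1 was higher in GFP-positive cells (limma, Benjamini-Hochberg adjusted p under 0.05), and their median log2 change was -1.69. Over all 18193 genes, 9.92% were called lower and 8.15% higher, and the median log2 change was 0.11. The 4 lower genes were Mcpt8, Ms4a2, Hdc and Cpa3, which act in basophils and mast cells. The mast cell chymase Cma1 rose. The eosinophil granule genes Prg2, Prg3 and Epx were low in GFP-positive arrays 1 and 2 and high in GFP-positive array 3, and none of them passed. Fcer1a was dim in every array. In 5 of the 9 genes the arrays of the groups did not overlap, against 45.6% of all genes. In bulk samples, fewer cells of a type and less RNA per cell cannot be told apart.

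**Figure D1:**
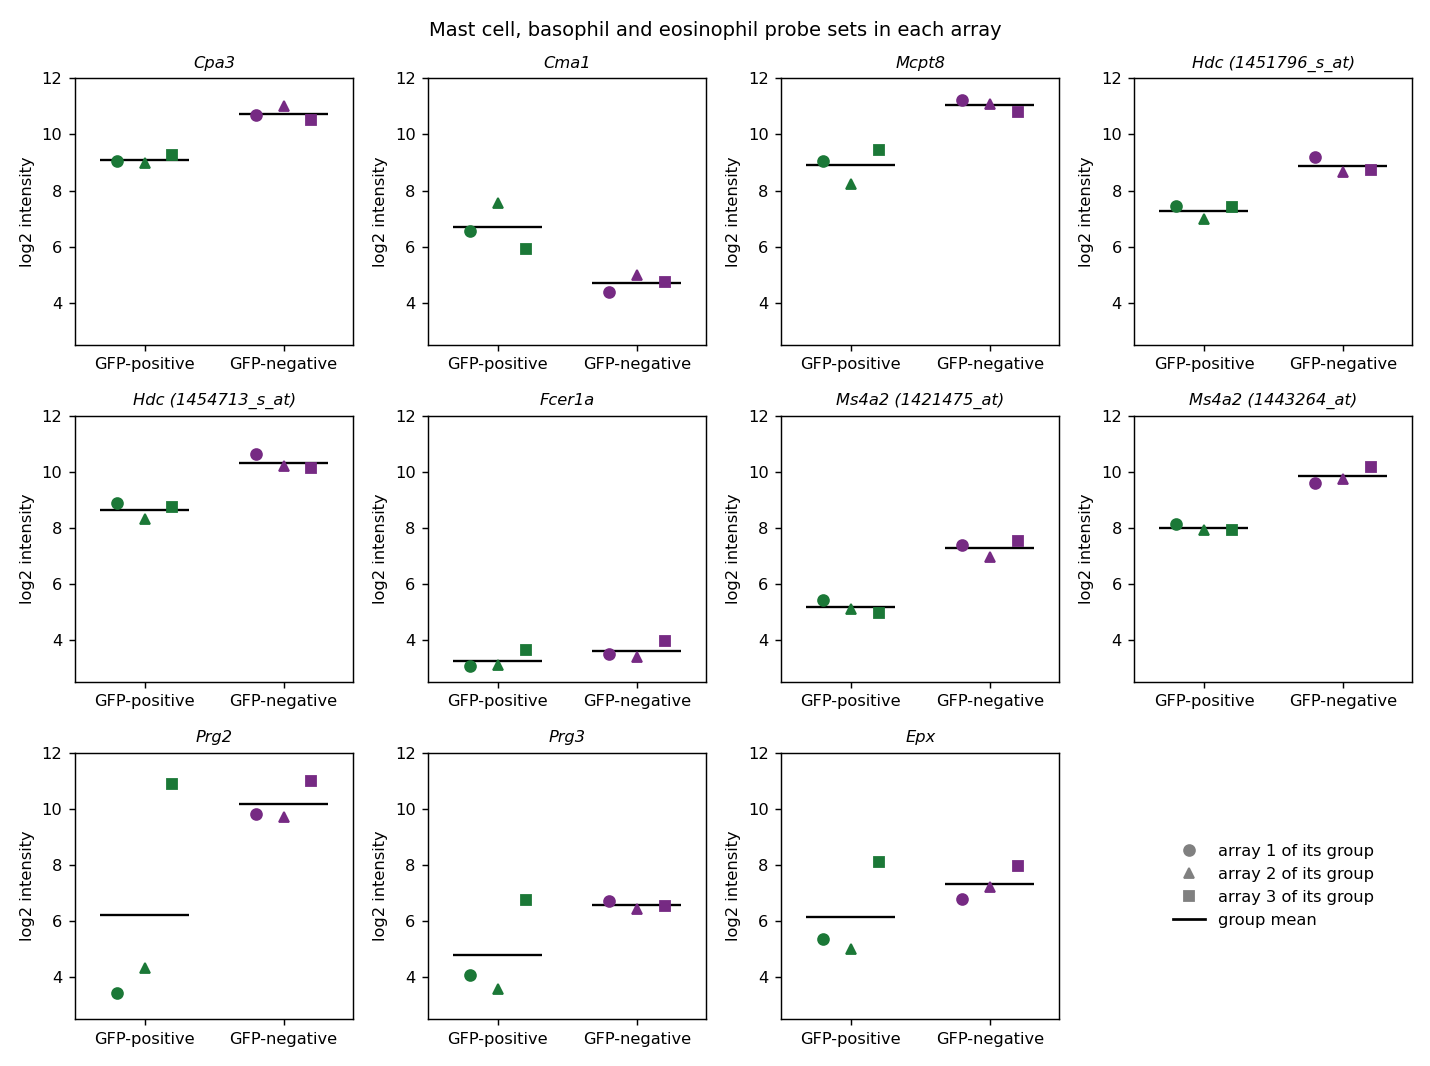
Log2 intensity (vertical axis) of the 11 probe sets in each array, GFP-positive at the left and GFP-negative at the right of each panel, with symbols for the array number within its group and a line at the group mean. Prg2, Prg3 and Epx show GFP-positive array 3 (square) beside the GFP-negative arrays, while Cpa3, Mcpt8, Hdc and Ms4a2 have all GFP-positive arrays below the GFP-negative ones.

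The upstream sequences of 3 genes are shown, since they carry matches to forms of the motif that GATA factors bind. They stand for the granule protease, IgE receptor and eosinophil groups. They are the 250 bases before the gene start in RefSeq (GRCm38.p6), and capitals mark AGATAA or TGATAA on either strand (TTATCT or TTATCA when read on the opposite one).
Cpa3, chr3:20242182-20242431, minus strand: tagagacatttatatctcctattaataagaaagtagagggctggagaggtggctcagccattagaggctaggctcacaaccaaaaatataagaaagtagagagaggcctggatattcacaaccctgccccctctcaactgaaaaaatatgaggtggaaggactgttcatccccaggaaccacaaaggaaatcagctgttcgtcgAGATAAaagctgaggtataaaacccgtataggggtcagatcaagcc
Ms4a2, chr19:11623720-11623969, minus strand: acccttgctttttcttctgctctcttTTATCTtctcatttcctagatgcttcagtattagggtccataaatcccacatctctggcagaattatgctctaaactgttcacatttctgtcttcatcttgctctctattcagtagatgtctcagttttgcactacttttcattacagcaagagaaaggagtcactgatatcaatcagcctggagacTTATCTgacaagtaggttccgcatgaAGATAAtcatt
Prg3, chr2:84987965-84988214, plus strand: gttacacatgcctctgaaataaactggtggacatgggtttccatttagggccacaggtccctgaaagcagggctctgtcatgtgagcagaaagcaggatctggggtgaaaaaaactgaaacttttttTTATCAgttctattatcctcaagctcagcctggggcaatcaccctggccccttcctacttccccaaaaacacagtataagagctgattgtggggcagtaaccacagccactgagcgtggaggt

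The matches began 46 bases before the start in Cpa3, 123 bases before it in Prg3, and 224, 37 and 11 bases before it in Ms4a2. RefSeq promoters were at hand for 9 of the 10 genes, all but Prg2, and 5 of these 9 held AGATAA or TGATAA. The others with a match were Fcer1a and Prss34, while the windows of Cma1, Mcpt8, Hdc and Epx did not hold these letters. Other forms of the GATA motif were not searched, so these windows may still hold them. Among 32851 promoters of the same length, 16.6% held at least 1 match and 2.72% held 2 or more. The letters TTGCNNAA, a form of the C/EBP motif searched on both strands, occurred in 1 of the 9 promoters, that of Fcer1a, against 9.56% of all promoters. These matches describe letters and do not show binding.

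Mcpt8, a granule serine protease by which mouse basophils are recognised, had log2 intensities of 9.06, 8.24 and 9.46 in GFP-positive arrays, against 11.23, 11.07 and 10.80 in GFP-negative arrays. The lowest GFP-negative array lay 1.35 above the highest GFP-positive array, so the groups did not overlap. Mcpt8 was 4.33-fold lower in GFP-positive cells (log2 change -2.11, SE 0.31; limma adjusted p = 0.00793). When both arrays with immunoglobulin signal were dropped the call was lost (log2 change -2.30, adjusted p = 0.0673), and it held without any 1 array (highest adjusted p = 0.0337).

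Cpa3 encodes carboxypeptidase A3, a metalloprotease stored in mast cell granules and also made in basophils. Its values were 9.05, 8.96 and 9.28 in GFP-positive arrays and 10.69, 11.01 and 10.50 in GFP-negative arrays. All GFP-positive arrays lay below all GFP-negative arrays, with a gap of 1.23 between the groups. Cpa3 was 3.11-fold lower in GFP-positive cells (log2 change -1.64, SE 0.16; limma adjusted p = 0.00215).

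Hdc encodes histidine decarboxylase, the enzyme that makes histamine. The brighter of its probe sets stood at 8.88, 8.30 and 8.72 in GFP-positive arrays, against 10.61, 10.21 and 10.14 in GFP-negative arrays. The dimmer one gave 7.46, 6.995 and 7.40 in GFP-positive arrays, against 9.20, 8.67 and 8.73 in GFP-negative arrays. In both probe sets the groups were apart, and GFP-positive array 2 was the lowest array. Hdc was 3.23-fold lower by the brighter probe set (SE of the log2 change 0.20; limma adjusted p = 0.00365) and 3.00-fold lower by the dimmer one (SE 0.19; adjusted p = 0.00425).

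The chains of the high-affinity IgE receptor differed in how they were measured. Ms4a2 encodes the beta chain, which amplifies the signal of the receptor. Its brighter probe set gave 8.13, 7.93 and 7.90 in GFP-positive arrays and 9.61, 9.74 and 10.16 in GFP-negative arrays. The dimmer one gave 5.42, 5.09 and 4.95 in GFP-positive arrays and 7.38, 6.94 and 7.52 in GFP-negative arrays. No GFP-positive array reached a GFP-negative one in either, with gaps of 1.49 and 1.52. Ms4a2 was 3.61-fold lower in GFP-positive cells by the brighter probe set and 4.37-fold lower by the dimmer one (SE of the log2 change 0.16 and 0.19; limma adjusted p = 0.00166 and 0.00182).

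Fcer1a encodes the alpha chain, which binds IgE. It had values of 3.06, 3.09 and 3.62 in GFP-positive arrays and 3.50, 3.38 and 3.95 in GFP-negative arrays. The groups overlapped, and the mean over all arrays was higher than in only 12.4% of probe sets, near the dim end of the arrays. No difference passed the test (log2 change -0.36, 95% interval -0.87 to 0.16; limma adjusted p = 0.300), and at this signal a difference in a dim transcript may not be detectable. The common gamma chain Fcer1g, which the receptor shares with other Fc receptors and is not among the 10 genes, was 2.95-fold lower in GFP-positive cells (10.37 ± 0.19 in GFP-positive and 11.93 ± 0.15 in GFP-negative arrays, SD, n = 3 each; limma adjusted p = 0.00166).

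**Figure D2:**
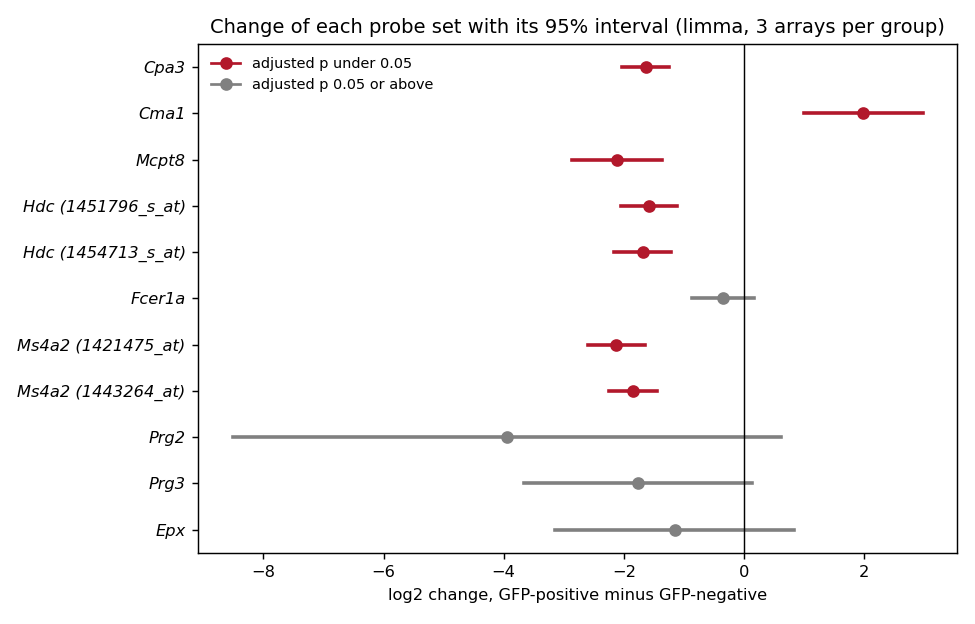
Log2 change, GFP-positive minus GFP-negative (horizontal axis), of each probe set with its 95% interval from limma on 3 arrays per group; red marks an adjusted p under 0.05. Cma1 is the probe set above 0 at 1.98, Cpa3, Mcpt8, Hdc and Ms4a2 lie between -2.13 and -1.58, and the interval of Prg2 runs from -8.51 to 0.62.

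Cma1, which encodes the chymase of connective tissue mast cells, went the other way. It stood at 6.57, 7.56 and 5.91 in GFP-positive arrays, against 4.38, 4.98 and 4.74 in GFP-negative arrays. The groups did not overlap, but the GFP-positive arrays spread over 1.65, with array 2 the highest. Cma1 was 3.95-fold higher in GFP-positive cells (log2 change 1.98, SE 0.41; limma adjusted p = 0.0262). The call was lost without GFP-positive array 1 (adjusted p = 0.0632), GFP-negative array 1 (0.0747), GFP-negative array 2 (0.0616) or GFP-negative array 3 (0.0811), and when both arrays with immunoglobulin signal were dropped (0.152). It was also lost when 32 was added to each intensity before taking logs, which damps dim values (log2 change 1.24, adjusted p = 0.0611).

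Of the other 5 genes of the mast cell marker list, Cpa3 was called lower and limma called none higher. The tryptase Tpsb2 averaged 5.89 ± 0.19 in GFP-positive and 5.50 ± 0.12 in GFP-negative arrays (SD, n = 3 each; limma adjusted p = 0.104). The tryptase Tpsab1 lay between 3.42 and 3.87, the protease Mcpt4 between 2.74 and 3.20, and the receptor gene Mrgprb1 between 2.76 and 2.86 over all 6 arrays. Summed over the 6 mast cell markers, Cpa3 and Cma1 included, the intensity ran from 710 to 786 in GFP-positive and from 1550 to 2165 in GFP-negative arrays. Most of that sum was Cpa3: without it, the other 5 summed to 144 to 286 in GFP-positive and 95.3 to 99.4 in GFP-negative arrays. The median log2 change of the 6 markers was 0.17.

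The eosinophil granule genes were set apart by their spread within the GFP-positive group. Prg2, which encodes major basic protein, had values of 3.43, 4.31 and 10.89 in GFP-positive arrays, against 9.79, 9.69 and 10.98 in GFP-negative arrays. GFP-positive array 3 lay among the GFP-negative arrays, and the other GFP-positive arrays lay far below all of them. This range of 7.45 within the GFP-positive group was the largest of all 45037 probe sets tested. The mean change of -3.94 had an SE of 1.89 and did not pass (95% interval -8.51 to 0.62; limma adjusted p = 0.210).

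Prg3, a homologue of major basic protein, showed the same arrangement at lower signal. It had 4.07, 3.55 and 6.73 in GFP-positive arrays, against 6.70, 6.43 and 6.54 in GFP-negative arrays. GFP-positive array 3 was slightly above the highest GFP-negative array, while arrays 1 and 2 were below the lowest. The GFP-negative arrays were close together, with an SD of 0.13 against 1.71 in GFP-positive arrays. The log2 change was -1.77 with an SE of 0.79 (95% interval -3.67 to 0.13; limma adjusted p = 0.182).

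Epx, which encodes eosinophil peroxidase, stood at 5.35, 5.00 and 8.09 in GFP-positive arrays, against 6.76, 7.20 and 7.94 in GFP-negative arrays. Again GFP-positive array 3 was the highest of all 6 arrays, and arrays 1 and 2 were the lowest. The log2 change was -1.15 with an SE of 0.82 (95% interval -3.14 to 0.83; limma adjusted p = 0.379).

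The gap from GFP-positive array 3 down to the higher of the other GFP-positive arrays was 6.57 for Prg2, 2.66 for Prg3 and 2.74 for Epx on the log2 scale. Among all 45037 probe sets these gaps ranked 1, 13 and 11. Only 33 probe sets, 0.0733% of them, had GFP-positive array 3 at least 2 above both other GFP-positive arrays. For comparison, 43 probe sets had GFP-positive array 1 and 20 had GFP-positive array 2 that far above the others of their group. The SD within GFP-positive arrays was 4.07 for Prg2, 1.71 for Prg3 and 1.69 for Epx, against a median of 0.16 over all probe sets. Within GFP-negative arrays it was 0.72 for Prg2, 0.13 for Prg3 and 0.60 for Epx, against a median of 0.15.

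**Figure D3:**
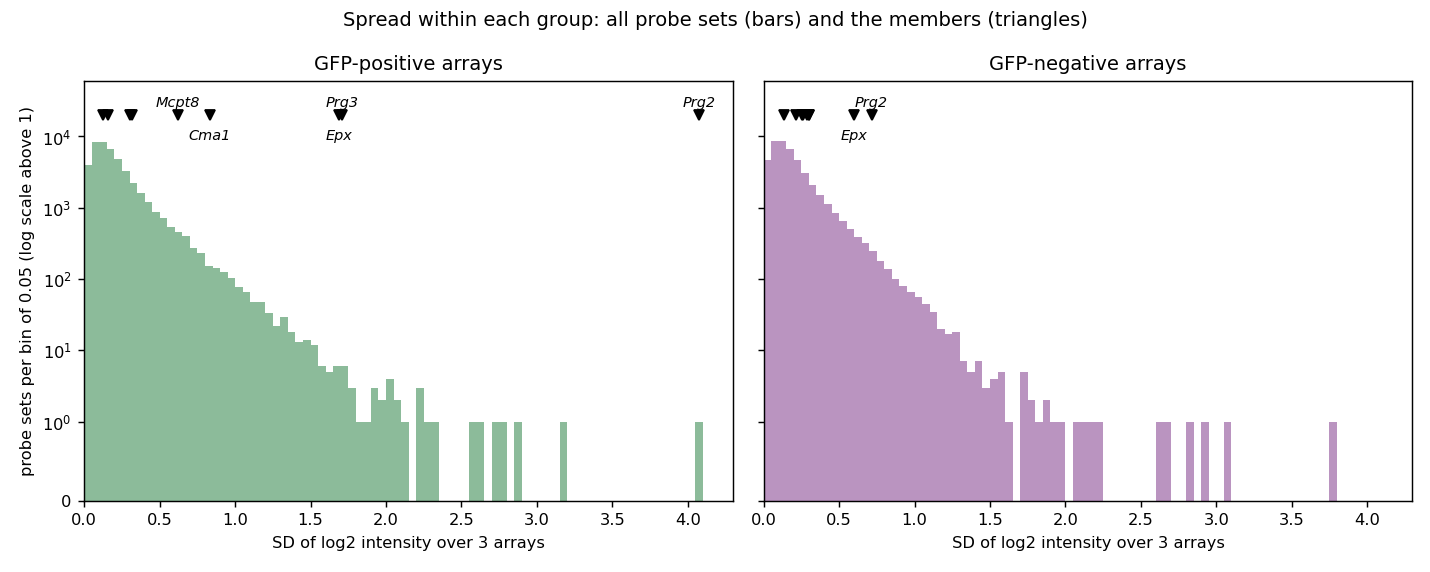
Number of probe sets (vertical axis, logarithmic above 1) by the SD of their log2 intensity over the 3 arrays of a group (horizontal axis), GFP-positive at the left and GFP-negative at the right, with triangles at the 9 genes, named where the SD is above 0.55. In the GFP-positive arrays Prg2 lies at 4.07 and Prg3 and Epx at 1.71 and 1.69, while no gene of the 9 exceeds 0.72 in the GFP-negative arrays.

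Without GFP-positive array 3 all of these genes were called lower in the remaining GFP-positive arrays. The log2 change was then -6.28 for Prg2 (limma adjusted p = 0.00485), -2.75 for Prg3 (adjusted p = 0.00454) and -2.13 for Epx (adjusted p = 0.0261), and 7 of the 9 genes were called lower. That fit was among those planned with the earlier values of Prg2 known, so it describes the arrays and is not a separate test. With GFP-positive array 1 and GFP-negative array 3 both left out, the limma adjusted p was 0.605 for Prg2, 0.483 for Prg3 and 0.837 for Epx.

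The receptor genes Il5ra and Ccr3 were dim in all arrays, GFP-positive array 3 included. Il5ra, a chain of the receptor for the eosinophil growth factor interleukin 5, stood at 4.37, 4.05 and 4.48 in GFP-positive arrays and at 4.72, 4.42 and 4.31 in GFP-negative arrays. The eotaxin receptor Ccr3 stood at 4.70, 4.76 and 3.997 in GFP-positive arrays and at 4.12, 4.31 and 3.72 in GFP-negative arrays. In neither was GFP-positive array 3 set apart as it was for Prg2. Summed over the 6 measured eosinophil markers, the intensities were 351, 526 and 2570 in GFP-positive arrays, against 1800 to 3361 in GFP-negative arrays. In GFP-positive array 3 most of this sum was Prg2, at a log2 intensity of 10.89, so the sum there largely repeats Prg2. Of these 6 markers, 1 was called by limma, the lectin Siglecf, which was lower. Among the GFP-positive arrays, array 3 also had the highest sums of marrow macrophage markers (894, 755 and 1258 in arrays 1 to 3) and of red cell precursor markers (4988, 5086 and 5723). The same held for basophil markers (829, 565 and 962) and for sorted progenitor markers (5253, 5078 and 5498). The B and plasma cell sum and the T and natural killer cell sum were highest in array 1. The neutrophil and mast cell sums were highest in array 2. The part of all these markers in the high eosinophil granule genes of array 3 was not tested.

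**Figure D4:**
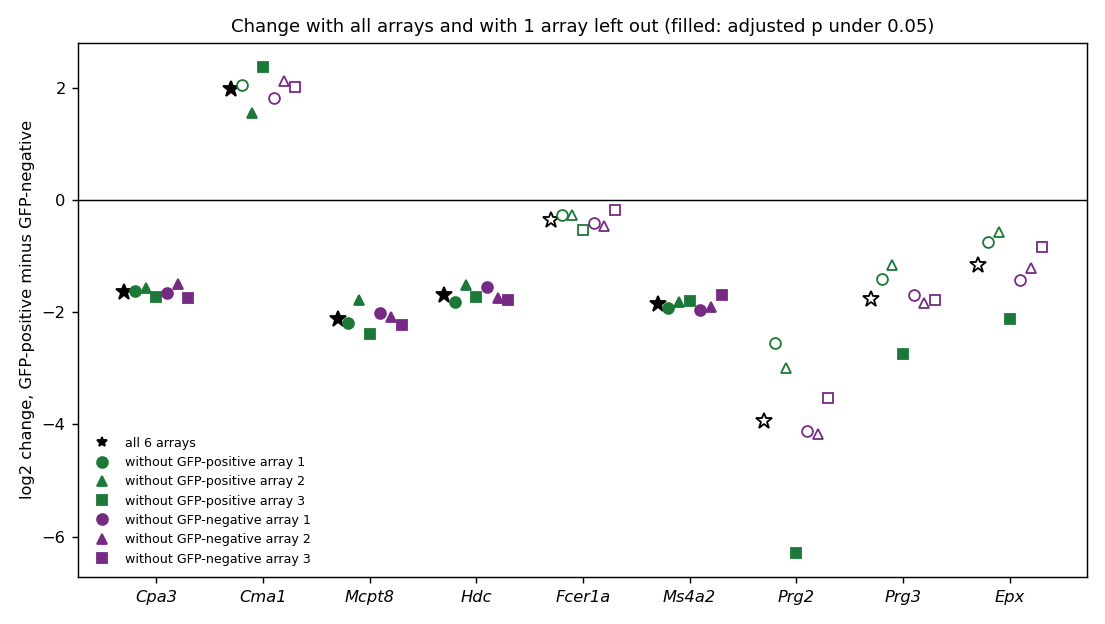
Log2 change, GFP-positive minus GFP-negative (vertical axis), of the 9 genes with all 6 arrays (star) and with each array left out in turn (other symbols); filled symbols have an adjusted p under 0.05. Cpa3, Mcpt8, Hdc and Ms4a2 stay filled throughout, whereas Prg2, Prg3 and Epx are filled at -6.28, -2.75 and -2.13 when GFP-positive array 3 is left out.

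The 9 genes fell into groups by the shape and size of their changes over the 6 arrays. As a measure of likeness, the root mean square difference of log2 values was taken after each gene's own mean over the 6 arrays was subtracted. Values were not scaled, so the size of a change counted as well as its shape. The closest pair was Cpa3 and Hdc at 0.26, and Cpa3, Mcpt8, Hdc and Ms4a2 lay within 0.48 of each other. Epx and Prg3 differed by 0.50, and Prg2, with its wider range, was 1.84 from Prg3 and 1.99 from Epx. Cma1 was at least 1.35 from every other gene of the 9, its nearest being the dim Fcer1a.

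The same measure was taken against 542 other genes with an SD of at least 1 over the 6 arrays. Nearest to Mcpt8 were Camk2a at 0.13, Gpr160 at 0.13, Rasgrp2 at 0.15, Nfam1 at 0.15 and Ctsh at 0.16. Nearest to Cma1 were Tac2 at 0.36, Pax9 at 0.37, Col1a1 at 0.39, Dmtn at 0.43 and Igsf3 at 0.44. Nearest to Prg2 were Spsb4 at 1.78, Rab39 at 2.03, Socs3 at 2.04, Yes1 at 2.04 and Eps8 at 2.08. Mcpt8 thus had close neighbours among genes that were lower in GFP-positive arrays, while the gene nearest to Prg2 was about as far from it as Prg3. Because values were not scaled, the wide range of Prg2 itself puts distance between it and other genes. The contrast therefore does not compare patterns alone.

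Genes that work with the members were counted from lists of mast cell, basophil, eosinophil and IgE receptor genes and of lineage regulators. The 15 measured genes of the IgE receptor signalling list included the receptor chain Fcer1g and Cd84. In this list 13 genes were called lower by limma and 0 higher (15 and 0 at an unadjusted p under 0.05). The median log2 change was -1.11 against 0.11 over all genes, of which 9.92% were called lower and 8.15% higher. At an unadjusted p under 0.05 limma gave 2748 of all 18193 genes lower and 3995 higher. Besides Fcer1g, the adaptor Sh2b2 was 3.91-fold lower, the adaptor Lat2 3.63-fold, the phospholipase Plcg2 3.31-fold and the kinase Syk 2.96-fold (limma adjusted p = 0.00463, 0.00169, 0.00166 and 0.00298). These genes serve other receptors of myeloid and lymphoid cells as well. The count of lower genes was 8 to 12 with 1 array left out, lowest without GFP-positive array 2, and 9 without both arrays with immunoglobulin signal.

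Of 18 measured basophil genes, 9 were called lower by limma and 0 higher (9 and 0 at an unadjusted p under 0.05). Their median log2 change was -0.63, and of all genes 9.92% were called lower and 8.15% higher. The unadjusted counts over all 18193 genes were 2748 lower and 3995 higher. Il18rap, a chain of the interleukin 18 receptor, was 5.32-fold lower, and Csf2rb, the beta chain shared by receptors of basophil and eosinophil growth factors, 4.67-fold (limma adjusted p = 0.00808 and 0.00275). Csf2rb2, a related chain found in mice, was 3.23-fold lower (adjusted p = 0.0261). Among the chemokines, Ccl3 was 3.31-fold lower and Ccl9 3.10-fold (adjusted p = 0.0183 for Ccl3 and 0.00113 for Ccl9). Cytokines of mature basophils were dim: Il4 lay between 4.90 and 5.68, and Il13 between 3.50 and 3.80. Without both arrays with immunoglobulin signal, 4 of the 9 were called, and Il18rap (adjusted p = 0.0763), Ccl3 (0.142) and Csf2rb2 (0.0783) were not. With 1 array left out, the call of Csf2rb2 held in 2 of the 6 limma fits (adjusted p up to 0.0724). That of Ccl3 held in 3 of the 6 (adjusted p up to 0.0635).

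Of 17 other measured mast cell genes, 2 were called higher and 2 lower (5 and 5 at an unadjusted p under 0.05), with a median log2 change of 0.17. The background was 8.15% of all genes called higher and 9.92% called lower, near the shares called in this list. The unadjusted counts over all 18193 genes were 3995 higher and 2748 lower. Gzmb, a granule protease of cytotoxic lymphocytes that mast cells can also make, was 15.9-fold higher in GFP-positive cells (9.42 ± 0.19 in GFP-positive and 5.42 ± 0.31 in GFP-negative arrays, SD, n = 3 each; limma adjusted p = 0.000936). Ndst2, an enzyme of heparin synthesis, was 1.60-fold higher (adjusted p = 0.0231), a call lost without GFP-positive array 3 or any GFP-negative array (adjusted p up to 0.0798). Slc18a2, a vesicular transporter that loads histamine into granules, was 2.44-fold lower and the protease Ctsg 1.79-fold lower (adjusted p = 0.00757 and 0.00592).

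Of 12 other measured eosinophil genes, 2 were called lower by limma and 0 higher (4 and 1 at an unadjusted p under 0.05). Their median log2 change was -0.32, and of all genes 9.92% were called lower and 8.15% higher. The unadjusted counts over all 18193 genes were 2748 lower and 3995 higher. With 1 array left out, 1 to 3 were called lower, with 1 called without GFP-negative array 2 or 3, and 1 was called higher without GFP-positive array 2. Alox5ap, which aids leukotriene synthesis, was 3.28-fold lower (limma adjusted p = 0.00114), and Siglecf was 2.85-fold lower (adjusted p = 0.0140; 0.116 with both immunoglobulin-bearing arrays left out). Siglecf lay at 7.88, 8.71 and 8.02 in GFP-positive arrays, against 9.36, 9.88 and 9.92 in GFP-negative arrays, so GFP-positive array 3 did not stand out. Its call was also lost without GFP-negative array 2 or 3 (adjusted p up to 0.0551).

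Among 17 measured regulators of these lineages, 9 were called lower by limma and 3 higher (11 and 3 at an unadjusted p under 0.05). The median log2 change of the 17 was -0.49, and of all genes 9.92% were called lower and 8.15% higher. The unadjusted counts over all 18193 genes were 2748 lower and 3995 higher. The lower ones included Irf8, a factor of monocytes and of early basophil and mast cell progenitors, at 5.37-fold, Spi1 at 3.71-fold and Cebpa, which acts in basophil and eosinophil development, at 2.96-fold (limma adjusted p = 0.00108, 0.00113 and 0.00137). Gfi1, a transcriptional repressor needed for granulocyte development, was 2.59-fold lower (adjusted p = 0.0215), a call lost without GFP-positive array 3 or any GFP-negative array (adjusted p up to 0.0667). Zfpm1, a cofactor of GATA factors, was 2.07-fold higher (adjusted p = 0.00565; 0.0670 with both immunoglobulin-bearing arrays left out). The GATA factors themselves, named after their values were seen, moved in opposite directions: Gata1 was 1.77-fold higher (adjusted p = 0.00555) and Gata2 1.40-fold lower (adjusted p = 0.0351). The call of Gata2 held in 1 of the 6 fits with 1 array left out (adjusted p up to 0.118). With 1 array left out, 5 to 10 regulators were called lower, with 5 called without GFP-negative array 2 or 3. Without both arrays with immunoglobulin signal, 3 were called lower and 1 higher.

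**Figure D5:**
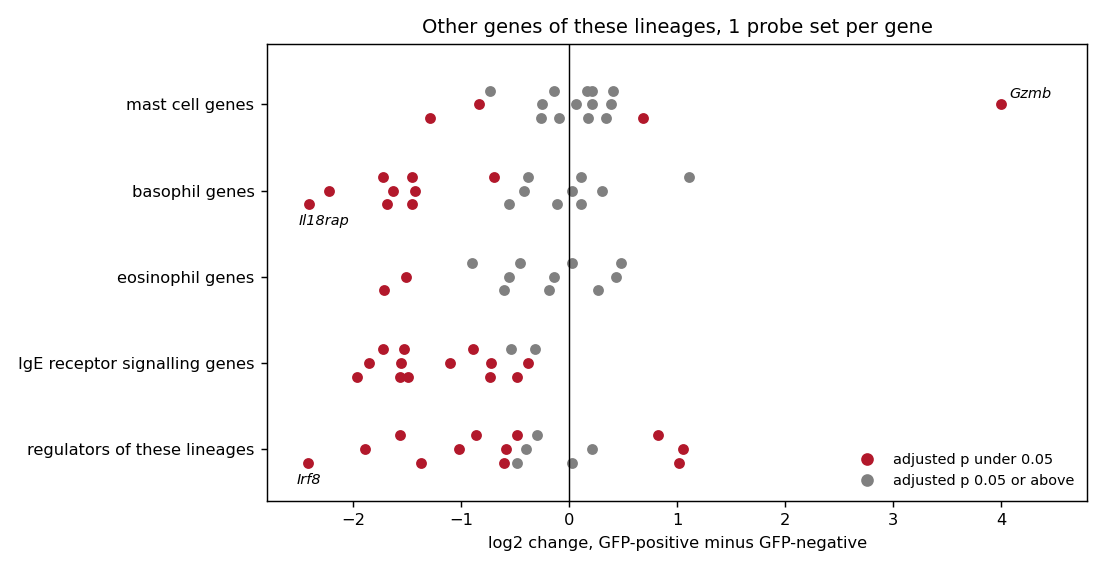
Log2 change, GFP-positive minus GFP-negative (horizontal axis), of the measured genes of the 5 lists, 1 probe set per gene, with red points for an adjusted p under 0.05 (vertical offsets only separate the points). Gzmb lies at 3.995, Il18rap at -2.41 and Irf8 at -2.42, and the 15 IgE receptor signalling genes all lie below 0.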

How the data were processed

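Per the submitters' processing notes the authors used RMA, and the deposited table gives probe set intensity on a linear scale. No source used here states the RMA version or how values left the log scale. Intensities ran from 4.27 to 24551, and array medians from 59.9 to 64.9. Here they were converted to log2 with no new normalization. After removal of 64 array controls, 45037 probe sets were tested, of which the platform annotation names 1 gene for 34945. The groups were compared by limma 3.58.1 under R 4.3.3 (lmFit, eBayes, 2-sided, no covariate), p-values being adjusted by Benjamini-Hochberg across every probe set and called below 0.05. The procedure was tested on simulated data. All 10 genes were named, and from each other list up to 5 called genes of largest change, a further few being named as markers or for their role. The genes and lists were chosen with earlier results of these data known. Promoters came from RefSeq. Alternatives were a replicate block, a trended robust prior, repeated quantile normalization, median centring, the brighter probe sets, an offset, array weights, the mean of a gene's probe sets, and arrays left out. The labels do not say that same-numbered arrays share an animal or day, so the arrays were treated as unpaired. Same-numbered arrays correlated at 0.02 to 0.05 in their deviations from group means. Python 3.11.15, pandas 2.3.3 and matplotlib 3.10.9 were used for tables and figures.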

Additional observations from a re-analysis of the deposited data

How the results depend on the processing

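Cpa3, Hdc and Ms4a2 kept their direction and call in all 15 alternatives, Mcpt8 in 14 and Cma1 in 8 of the 14 that gave it a value, and no gene of the 9 changed sign. The count of genes called lower was 4 to 7 with 1 array left out, reaching 7 without GFP-positive array 3. The count called higher was 0 to 1 with 1 array left out. It was 0 with the offset of 32 and 0 without both arrays with immunoglobulin signal, and it was 0 among the 22518 brighter probe sets, which do not include Cma1, Prg3 or Fcer1a. Over all probe sets 6312 were called, 3404 to 5235 with 1 array left out and 2333 without both arrays with immunoglobulin signal. Of all calls 45.3% were higher, 61.5% with array medians subtracted, 35.3% to 43.2% with 1 array left out and 29.2% without both arrays with immunoglobulin signal (681 higher and 1652 lower). With the replicate block 4841 probe sets were called and the same 5 genes passed (Mcpt8 at adjusted p = 0.0348). Every array correlated best with the array of its own number in the other group, at r of 0.0191 to 0.0547 across probe sets, which is a hint from the data and not the design. The left-out counts of the other lists were chosen after seeing the data. Folds of dim genes depend on the background: with the offset the log2 change of Prg3 was -0.92 and that of Prg2 was -2.86.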

Other observations

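A few other genes of the lists varied within groups without a call. The eosinophil ribonuclease Ear3, named after its values were seen, stood at 4.68, 5.83 and 7.57 in GFP-positive arrays and at 5.53, 7.22 and 8.04 in GFP-negative arrays (limma adjusted p = 0.524). GFP-positive array 3 was the highest of its group, as it was for Prg2, Prg3 and Epx, but the GFP-negative arrays of Ear3 were spread about as widely. Hpgds, the prostaglandin synthase of mast cells, stood at 8.12, 6.48 and 5.76 in GFP-positive arrays and between 6.62 and 7.12 in GFP-negative arrays (adjusted p = 0.929), with array 1 the highest. Camp, a granule gene of late neutrophils, stood at 10.17, 11.57 and 10.10 in GFP-positive arrays and at 9.89, 9.24 and 6.57 in GFP-negative arrays (adjusted p = 0.175). Hpgds and Camp thus had another GFP-positive array at their top than Prg2 did.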
